A study of Homo sapiens with 2 samples.

Results

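miR-1307 is a human microRNA (miRNA) whose 5p and 3p arms were both counted in A549 cells under normoxia and hypoxia. Its 2 arms, hsa-miR-1307-5p and hsa-miR-1307-3p, were taken by name from a table of 5475 small RNA features, of which 859 are mature miRNAs. The pair was chosen by its log2 ratio of hypoxia over normoxia, so the lower level of each arm in hypoxia is a description here and not a finding. Both arms passed the filter on low values used below, as did 339 mature miRNAs in all.

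A549 is an established human lung adenocarcinoma cell line, grown here with 10% foetal calf serum. For 24 h the cells were held at 20% oxygen (normoxia) or at 1.2% oxygen (hypoxia), and small RNAs were sequenced from their total RNA. There is 1 library for each condition, so the contrast has no replicate check, and no test and no p-value is given for it. Nothing in these libraries separates an effect of oxygen from any other difference between the 2 cultures or preparations.

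A miRNA is cut from a folded stretch of a longer transcript. Drosha releases the hairpin in the nucleus and Dicer trims it in the cytoplasm to a short duplex, whose strands are the 5p and 3p arms. One or both strands are then loaded into an Argonaute protein, and the seed, bases 2 to 8 of the loaded strand, directs it to messenger RNAs with a matching site. In low oxygen the hypoxia-inducible factors switch on a large set of genes, and miR-210 is the miRNA best known to be induced with them.

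The mature sequences are shown because they tell the arms from each other and from all other miRNAs of the table, and because of the repeat and the CpG steps described later. They are the RefSeq sequences on GRCh38, written 5′ to 3′ with the seed in capitals.
miR-1307-5p: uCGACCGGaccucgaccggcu
miR-1307-3p: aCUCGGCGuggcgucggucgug
The 5p arm is 21 bases long and the 3p arm 22. The entries of the table hold the same bases with 1 more at each end, shown here in capitals.
miR-1307-5p, table entry: CtcgaccggacctcgaccggctC
miR-1307-3p, table entry: GactcggcgtggcgtcggtcgtgG
Of the 848 other mature miRNAs with a sequence in the table, 0 share the seed of either arm. The nearest of them differs from the 5p arm by 6 edits (substitutions, insertions or deletions) and from the 3p arm by 8. Another 9 listed miRNAs have no usable sequence in the table and were not compared.

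The 5p arm holds an internal repeat, in which 8 bases at its 5′ end recur at positions 12 to 19, so the seed is present a second time within the same molecule. The repeat is in capitals.
miR-1307-5p, repeat: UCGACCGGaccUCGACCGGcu
A repeat at least this long was found in 2 of the 848 others. In the 3p arm the longest repeat is 5 bases.

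The MIR1307 hairpin (gene ID 100302174) lies on the minus strand of chromosome 10, from 103394253 to 103394401 in GRCh38, and is 149 bases long. The 5p arm runs from 103394341 to 103394361 and the 3p arm from 103394301 to 103394322, with 18 bases between them. In hg19, the build of the table, the entries with their extra bases lie at 105154097 to 105154119 for the 5p arm and at 105154057 to 105154080 for the 3p arm. A computed fold of the hairpin has a minimum free energy of -54.8 kcal/mol and pairs 16 of the 21 bases of the 5p arm with the 3p arm. The hairpin sits inside ATP5MD, now named ATP5MK, which is read from the same strand and encodes a small protein associated with the mitochondrial ATP synthase. Of 5 annotated ATP5MD transcripts, 3 have the hairpin within an intron. The other 2 have a 5′ UTR exon, from 103394199 to 103394394, that covers 142 of the 149 bases.

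The libraries hold 6449337 counts in normoxia and 13115226 in hypoxia, and mature miRNAs took 4514818 and 8600160 of these. Levels are given as counts per 1000000 mature miRNA counts (CPM), with exact Clopper-Pearson 95% intervals. These intervals cover counting error only, and since the reads were amplified by PCR without molecular identifiers, they are not independent molecules. In both libraries miR-21-5p led, at 722090 CPM in normoxia and 683588 in hypoxia, and the epithelial markers miR-200c-3p (24.1 and 24.8 CPM) and miR-141-3p (37.2 and 25.5 CPM) were present. Of the markers of other cells, miR-1, miR-206, miR-144-3p and miR-223-3p are not listed. The liver marker miR-122-5p had 4 counts in each library, miR-142-3p of leukocytes 5 and 6, miR-142-5p 2 and 2, miR-124-3p of neurons 3 and 6, and miR-133a of muscle 0 and 18. Higher were miR-9-5p of neurons (232 and 451 counts, 51.4 and 52.4 CPM) and miR-451a of erythroid cells (82 and 191 counts, 18.2 and 22.2 CPM). The highest was miR-126-3p of endothelium (809 and 1630 counts, 179 and 190 CPM). In both libraries miR-9-5p and miR-126-3p lay above miR-200c-3p and miR-141-3p. The part of other cells in the values of miR-1307 was not tested.

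miR-1307-5p received 117 counts in normoxia and 123 in hypoxia. These correspond to 25.9 CPM (interval 21.4 to 31.1) in normoxia and 14.3 CPM (11.9 to 17.1) in hypoxia. The raw counts of the 5p arm were thus nearly equal in libraries of very different depth.

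miR-1307-3p received 69 counts in normoxia and 65 in hypoxia. Its level was 15.3 CPM (11.9 to 19.3) in normoxia and 7.56 CPM (5.83 to 9.63) in hypoxia. The 3p arm lay below the 5p arm in each library, and its raw counts were likewise nearly equal.

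Summed over both arms, the locus gave 186 mature counts in normoxia and 188 in hypoxia, or 41.2 CPM (35.5 to 47.6) and 21.9 CPM (18.8 to 25.2). At the same share of the mature counts as in normoxia, the hypoxia library would have held 222.9 counts of the 5p arm and 131.4 of the 3p arm. The observed counts are therefore small for the depth of the hypoxia library, and the drop rests on how the libraries are scaled to each other.

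**Figure D1:**
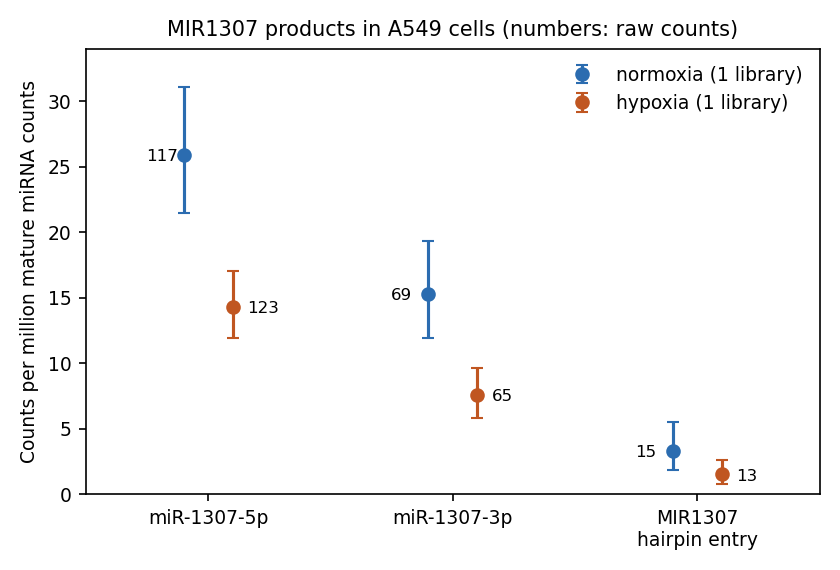
Level of miR-1307-5p, miR-1307-3p and the MIR1307 hairpin entry in CPM of mature miRNA counts (vertical axis, starting at 0) in 1 normoxia and 1 hypoxia library, with exact 95% counting intervals as bars and the raw counts as numbers. The raw counts of each product are nearly the same in both libraries (117 and 123 for the 5p arm), while its CPM is lower in hypoxia (25.9 and 14.3).

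Ratios between the libraries were computed on the trimmed mean of M values (TMM) scale of edgeR, which assumes that most miRNAs do not change, with a prior count of 2. On this scale hypoxia was 2.06 times as deep as normoxia. For miR-1307-5p the log2 ratio, hypoxia over normoxia, was -0.96, with a counting interval of -1.35 to -0.59. This corresponds to 0.515 times the normoxia level (0.393 to 0.662).

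For miR-1307-3p the log2 ratio was -1.10 (-1.64 to -0.62), or 0.467 times the normoxia level (0.320 to 0.651). The summed arms gave -1.02 (-1.33 to -0.73), or 0.494 times (0.398 to 0.604). These intervals describe the counting error of ratios on which the pair was chosen, and they do not cover the difference between cultures.

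A mature miRNA was counted as lower when its log2 ratio was -0.9 or less and its mean log2 CPM above 3 (the size rule), and as higher at 0.9 or more. By this rule 15 of 339 mature miRNAs were lower, which is 4.42%, and 8 were higher. Both arms of miR-1307 are among the 15, since they were selected on this ratio, and nothing is read from that share. The 3p arm was 7th from the lowest of the 339 log2 ratios and the 5p arm 15th, the least of the 15 that met the rule. The median log2 ratio of all 339 was -0.035.

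The arms stand near the lower end of the filter, where few counts carry a ratio. Of the other miRNAs past the filter, 266 had more counts over both libraries than the 240 of the 5p arm, and 314 had more than the 134 of the 3p arm. Among the 101 miRNAs whose total lay within 2-fold of the 5p arm, log2 ratios ran from -2.28 to 1.19 with a median of 0.074 and an SD of 0.523. Among the 80 within 2-fold of the 3p arm, they ran from -2.28 to 0.91 with a median of 0.019 and an SD of 0.528. By the same rule 4 of the 101 and 4 of the 80 were lower, while 2 and 1 were higher.

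**Figure D2:**
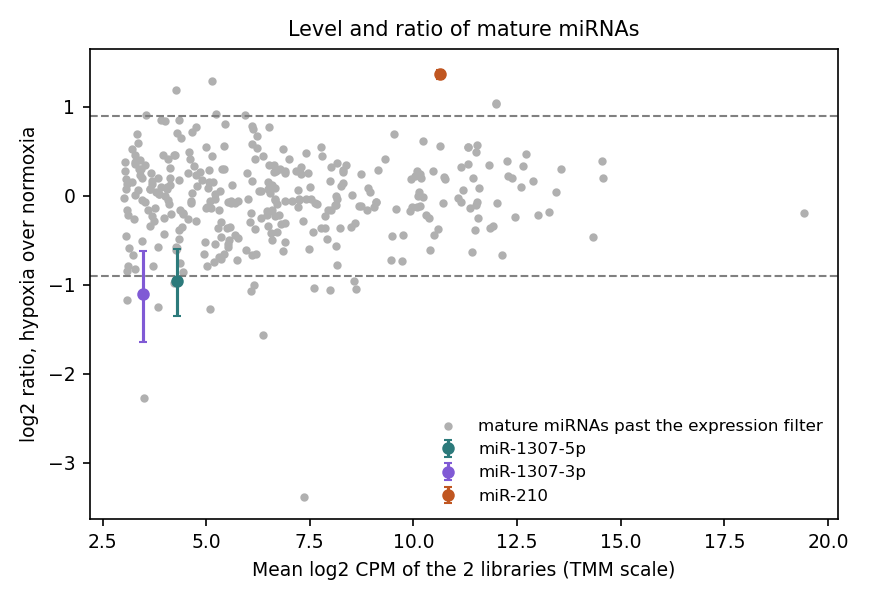
Mean log2 CPM of the 2 libraries (horizontal axis) and log2 ratio of hypoxia over normoxia (vertical axis) for the 339 mature miRNAs past the filter, on the TMM scale, with 95% counting intervals for the named miRNAs and dashed lines at the size rule. Both arms of miR-1307 lie among the less abundant miRNAs just below the lower line (-0.96 and -1.10), and miR-210 has the highest log2 ratio at 1.36.

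The raw counts of each arm can also be compared directly, though the filter itself uses the TMM scale. Of the 339 miRNAs past the filter, 10 (2.95%) had fewer raw counts in hypoxia than in normoxia although the hypoxia library is the deeper one. miR-1307-3p is one of these 10, with 65 against 69 counts, while under totals of all counts and TMM over all features it is below the filter and 7 of 302 miRNAs had fewer. miR-1307-5p is not, with 123 against 117.

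The size of the drop was then compared over 7 scalings, which set the depth of hypoxia between 1.90 and 2.20 times that of normoxia. Scaled by the totals of mature miRNA counts, the smallest of these factors, the log2 ratio was -0.84 (-1.23 to -0.48) for the 5p arm, which does not meet the rule, and -0.99 (-1.53 to -0.51) for the 3p arm, which does. By this scaling 11 of 339 mature miRNAs were lower, 3.24%, and 12 were higher, and the median log2 ratio of all 339 was 0.079, a shift of 0.11 from the TMM scale. A change of scaling moves the arms and the other miRNAs by nearly the same amount.

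Upper-quartile factors gave -0.88 for the 5p arm, also short of the rule, and -1.03 for the 3p arm. DESeq2 size factors gave -0.91 and -1.06, and totals of all counts in the table gave -0.94 and -1.08. The lowest values came when the top 10 miRNAs of each library were kept out of the totals (-1.04 and -1.18) and with TMM over all features (-1.05 and -1.19). Over the 7 scalings the 3p arm was at -0.9 or less in all and the 5p arm in 5. Under totals of all counts and TMM over all features, however, the 3p arm had a mean log2 CPM of 2.91 and fell below the filter. Both arms met the whole rule under 3 of the 7 scalings (TMM, DESeq2 size factors and totals without the top 10).

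**Figure D3:**
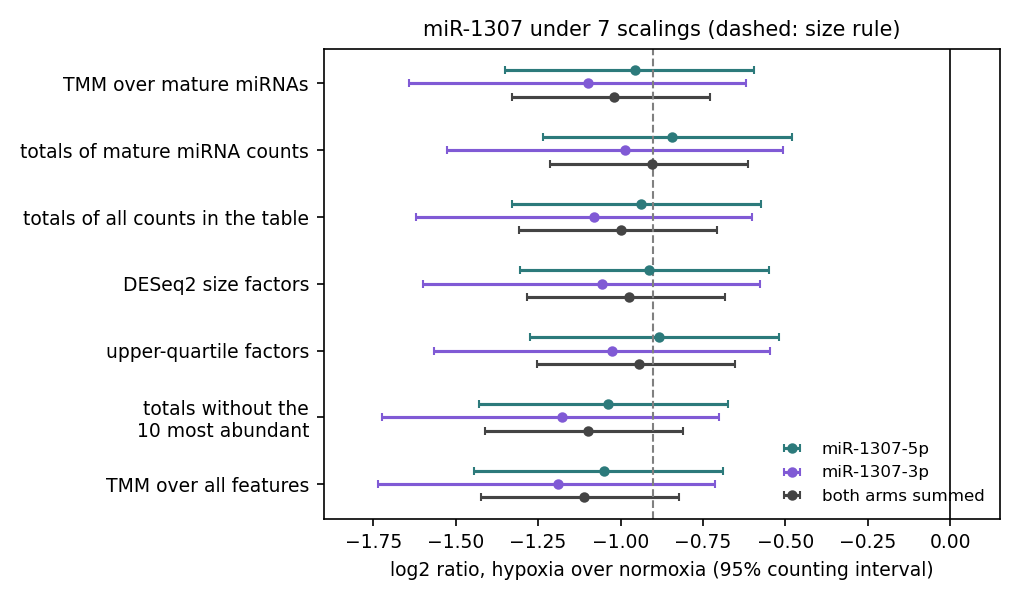
Log2 ratio of hypoxia over normoxia (horizontal axis) for miR-1307-5p, miR-1307-3p and their sum under 7 scalings of the 2 libraries (vertical axis), with 95% counting intervals as bars and a dashed line at -0.9. The ratios of the 5p arm lie on both sides of the line (-0.84 to -1.05), and those of the 3p arm lie below it under every scaling shown.

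The balance between the arms within a library was not used in the choice, but their difference in ratio is tied to it, since the choice asked for a low ratio in both arms. The 3p arm held 37.1% of the mature counts of the locus in normoxia (30.1 to 44.5) and 34.6% in hypoxia (27.8 to 41.8). In counts, the 5p arm had 1.70 per count of the 3p arm in normoxia and 1.89 in hypoxia. The 5p arm was the more abundant one in both libraries, and the intervals of the shares overlap widely.

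The shares lie within each library and need no scaling between them. The log2 ratios of the arms differed by 0.14 (5p minus 3p, counting SE 0.311, interval -0.48 to 0.80), so a difference between the arms was not detectable at this depth. A smaller difference in size between the arms was found in 10 of 72 other hairpins with both arms past the filter, where the median was 0.427. The share of the 3p arm moved by -2.52 percentage points, and 42 of the 72 others moved by less. These places among the other hairpins are a description, since the other hairpins were not chosen for low ratios in both arms.

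The less abundant arm took a median of 9.84% of the counts of the other hairpins in normoxia and 9.17% in hypoxia. A share larger than that of miR-1307-3p was found in 6 of the 72 in normoxia and 7 of the 72 in hypoxia. A rare hairpin such as miR-1307 can pass the filter with both arms if they are about even. An abundant one can pass with a small share on its lesser arm. The part of the filter in these shares was not tested.

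Of the 73 hairpins with both arms past the filter, miR-1307 is the one in which both arms met the size rule for lower, which is 1.37% of them. That count is fixed by the choice of the pair, and it was 0 under 4 of the 7 scalings. The trait depends on the filter and is not particular to miR-1307. Just short of the filter, the arms of miR-32 were at -1.07 (423 and 413 counts) and -1.06 (46 and 44 counts), with a mean log2 CPM of 2.92 for the 3p arm. With no filter 4 of 199 hairpins had both arms at -0.9 or less, the others being miR-3676 (33 and 30 counts, -1.11, and 57 and 20 counts, -2.41) and miR-708, with 10 counts or fewer on each arm. Ordered by the higher of their 2 log2 ratios, the next hairpins past the filter were miR-335, miR-502 and miR-15b. For miR-335, which lies in an intron of the imprinted gene MEST, the log2 ratios were -0.84 (48 and 54 counts in normoxia and hypoxia) for the 5p arm and -0.50 (491 and 716 counts) for the 3p arm.

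The arms of miR-502, a member of a miRNA cluster in an intron of CLCN5, were at -0.79 (74 and 87 counts) and -0.49 (104 and 152). Those of miR-15b, of the miR-15/16 family that acts on BCL2, were at -0.61 (7288 and 9842) and -0.45 (3634 and 5488). In these 3 hairpins 0 of the arms met the rule.

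Among the 72 other hairpins, both arms were below 0 in 23, both were above 0 in 14, and the arms had opposite signs in 35. Exactly 1 arm was lower by the rule in 3. In 65 of the 72 the less abundant arm had more counts than the 134 of miR-1307-3p, with a median of 518.

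**Figure D4:**
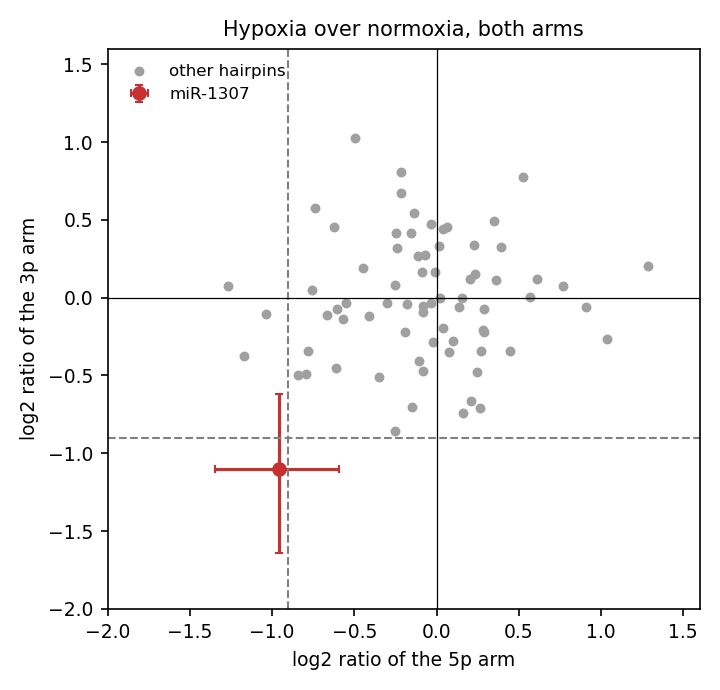
Log2 ratio of hypoxia over normoxia of the 5p arm (horizontal axis) and of the 3p arm (vertical axis) for 73 hairpins, on the TMM scale, with 95% counting intervals for miR-1307 and dashed lines at -0.9. The point of miR-1307 (-0.96, -1.10) lies in the lower left corner past both lines, and its intervals reach back across each of them.

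The table also has an entry for the MIR1307 hairpin itself, beside those for the mature arms. Since the counting rules are not given, it is not known whether reads of the arms were also counted in it. This entry had 15 counts in normoxia and 13 in hypoxia, or 3.32 CPM (1.86 to 5.48) and 1.51 CPM (0.805 to 2.58). Its log2 ratio on the TMM scale was -1.10 (-2.44 to -0.08), and by the totals of mature counts -0.998 (-2.33 to 0.036). The entry was thus at about the ratio of the arms, with an interval wide enough to include no change under one scaling.

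Taken as separate from the arms, the hairpin entry made up 7.46% of the counts of the locus in normoxia and 6.47% in hypoxia. With it, the locus had 201 counts in each library, and a log2 ratio of -1.03 (-1.33 to -0.75). The 506 hairpin entries of the table together gave 10572 and 17872 counts, a log2 ratio of -0.29. Of the 119 with a total within 2-fold of that of MIR1307, 13 were at -0.9 or less and the median was 0.059.

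miRNAs with the most similar levels were found by the distance between their TMM log2 CPM in the 2 libraries and those of each arm, which includes the ratio used to choose the pair. Nearest to the 5p arm were miR-125b-1-3p (112 and 116 counts, distance 0.104), miR-193a-5p (115 and 139 counts, 0.175) and miR-17-3p, the passenger arm of a member of the miR-17-92 cluster (125 and 141 counts, 0.215). Their log2 ratios were -0.98, -0.76 and -0.86. Nearest to the 3p arm were miR-449b-5p (55 and 63 counts, 0.323), miR-502-5p (74 and 87 counts, 0.418) and miR-15a-3p (55 and 79 counts, 0.420), at -0.82, -0.79 and -0.51. With 1 library per condition, likeness over 2 values says little, and each of these ratios lies within the counting interval of the arm it was set beside, except that of miR-15a-3p.

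The listed miRNAs nearest to MIR1307 in hg19 all lie far from it, with distances measured from the nearer of its arm entries. The first are miR-609, 824486 bases away, with 2 and 1 counts, and miR-146b-5p, 957757 bases away, with 542 and 894 counts. The next are the arms of miR-3158, with 9 and 10 counts for the 5p arm at 1792813 bases and 9 and 6 for the 3p arm at 1792850. The log2 ratio of miR-3158-3p, -1.29 (-3.40 to 0.024), was below those of both arms of miR-1307, with an interval that contains both. Of these neighbours, miR-146b-5p passed the filter, with a log2 ratio of -0.32 (-0.48 to -0.17). This lies above the intervals of both arms of miR-1307, but these were chosen for low ratios, so nothing is read from it.

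Both arms are rich in G and C, and above all in CpG steps, a C followed by a G. GC content is 71.4% for the 5p arm and 72.7% for the 3p arm, and 39 and 34 of the 848 other mature miRNAs are at least as rich. The CpG steps are in capitals here.
miR-1307-5p, CpG steps: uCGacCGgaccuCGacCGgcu
miR-1307-3p, CpG steps: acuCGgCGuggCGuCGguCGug
The 5p arm has 4 and the 3p arm 5. As many as 4 were found in 10 of the 848 others, and as many as 5 in 2.

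The comparators past the filter with at least 4 CpG steps were the following, shown for their likeness to the arms in this feature.
miR-339-3p: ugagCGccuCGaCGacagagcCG
miR-1247-5p: accCGuccCGuuCGucccCGga
miR-375: uuuguuCGuuCGgcuCGCGuga
miR-3687: ccCGgacaggCGuuCGugCGaCGu
The counts of miR-339-3p were 521 in normoxia and 810 in hypoxia (log2 ratio -0.41). miR-1247-5p had 113 and 251 counts (0.11), miR-375, best known from pancreatic islets, 42 and 91 (0.069), and miR-3687 had 33 and 112 (0.70). These 4 lay on both sides of 0, and 0 of them met the rule for lower. They also lay above the arms of miR-1307, but the arms were chosen for low ratios, so nothing is read from this.

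With the arms of miR-1307 left out, the median log2 ratio was -0.071 for the 211 miRNAs with 0 CpG steps, 0.039 for the 93 with 1, 0.126 for the 22 with 2, 0.016 for the 6 with 3 and 0.088 for the 4 with more. The rule for lower was met by 9 of the 211, 4 of the 93 and 0 of the rest. Among the 10 other miRNAs with a GC content of at least 70%, 0 were lower, the median was 0.11 and the range -0.58 to 0.70. With so few miRNAs of 2 or more steps past the filter, a count of 0 is not far from the 4.42% of all miRNAs and does not set them apart.

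**Figure D5:**
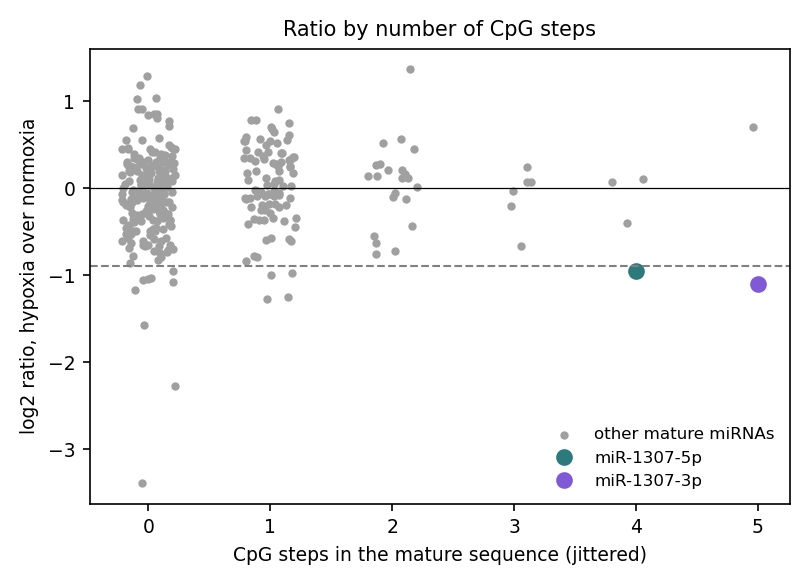
Number of CpG steps in the mature sequence (horizontal axis, points spread sideways for sight) and log2 ratio of hypoxia over normoxia (vertical axis) for mature miRNAs past the filter, on the TMM scale, with a dashed line at -0.9. The arms of miR-1307 (4 and 5 steps), which were chosen for low ratios, lie below the line. The other miRNAs with 4 or more steps lie between -0.41 and 0.70.

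As a check of the hypoxia label, miR-210 went from 4307 to 22849 counts, or from 954 to 2657 CPM, with a log2 ratio of 1.36 (1.32 to 1.41). Its direction was opposite to that of both arms of miR-1307, but these were chosen for low ratios, so nothing is read from this. Of 13 miRNAs linked to hypoxia, all past the filter, 1 was higher by the rule (miR-210) and 1 was lower (miR-103a-3p at -0.96), beside 8 higher and 15 lower of all 339. Their median log2 ratio was 0.20, against -0.035 for all 339. Both medians move with the scaling, to 0.32 and 0.079 by totals of mature counts and to 0.11 and -0.14 by TMM over all features, where 302 miRNAs passed the filter.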

How the data were processed

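Small RNA libraries of A549 cells were made from total RNA by adapter ligation and PCR, 1 per condition. The authors deposited 1 table of raw counts per small RNA feature, not normalized, with sequences and positions. Per the labels, the build is hg19, while the aligner and the counting rules are not given in the sources used here. Every listed feature has at least 3 counts over both libraries. A count of 0 allows up to 3 counts, or 0.664 CPM in normoxia and 0.349 in hypoxia.

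Libraries were scaled on the 859 mature miRNAs with TMM in edgeR version 4.0.16 (R version 4.3.3), and log2 CPM had a prior count of 2. Intervals for a level or share are Clopper-Pearson, while ratios have exact binomial intervals conditional on the total of both libraries, all at 95%. The calculation was tested on simulated Poisson counts, which hold no difference between cultures and no repeated reads from PCR. The alternatives were 6 other scalings (one with DESeq2 version 1.42.0), a prior count of 0.5, thinning of the hypoxia library, other filters, a log2 threshold of 1 and pairing of arms by sequence. The thresholds of 0.9 and 3 were kept from an earlier report on these data, and the members and lists were chosen with earlier results of these data known.

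The miRNAs named are the arms of miR-1307, for each arm the 3 nearest in level, the 3 hairpins next in order by their higher arm (miR-32, miR-3676 and miR-708 were added after their values were seen), the 3 nearest in the genome with the other arm of the last, those past the filter with at least 4 CpG steps, miR-210, and the lists of 13 hypoxia-linked miRNAs and of cell type markers. Sequence comparisons used the 850 mature miRNAs with a sequence, since 9 entries hold 1 base. Names matched RefSeq for 687 of 859, and the sequence was equal for 653. Host transcripts came from the GENCODE annotation of GRCh38, and the fold from RNAfold version 2.7.2.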

Additional observations from a re-analysis of the deposited data

Results flagged for a closer look

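The MIR1307 hairpin entry was singled out because it is not among the mature miRNAs that carry the comparison. Its counts were above the limit of 3 counts set for a listed 0, with no control library to set it against. Whether it shares reads with the arms is not known. It had 15 counts in normoxia and 13 in hypoxia.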

How the results depend on the processing

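Over the alternatives run, the log2 ratio ranged from -1.31 to -0.84 for miR-1307-5p, from -1.36 to -0.99 for miR-1307-3p, and from -1.21 to -0.998 for the hairpin entry. The summed arms reached -1.35 when the hypoxia library was thinned to the depth of normoxia, in 1 draw that kept 50 counts of the 5p arm and 28 of the 3p arm where 64.6 and 34.1 were expected. The count of hairpins with both arms lower, 1 by TMM, was 0 by totals of mature counts, totals of all counts, upper-quartile factors, TMM over all features, a mean CPM of at least 20 and a log2 threshold of 1. It was 3 of 130 by totals without the 10 most abundant miRNAs and 4 of 199 with no filter. Mature miRNAs that were lower, 15 by TMM, numbered 43 of 557 without the 10 most abundant in the totals and 80 of 859 with no filter. The 5p arm missed -0.9 by totals of mature counts and by upper-quartile factors. By totals of all counts and by TMM over all features the 3p arm fell below the filter, at a mean log2 CPM of 2.91. The median of the 13 hypoxia-linked miRNAs, 0.20 by TMM, was 0.32 by mature totals, 0.25 by DESeq2 size factors, 0.28 by upper-quartile factors, 0.12 without the 10 most abundant and 0.11 by TMM over all features. Of 19 miRNAs set beside miR-1307 (those nearest in level, the arms of the next hairpins, the genome neighbours without miR-609, the 4 rich in CpG steps and miR-210), 18 kept their sign under 7 alternatives chosen after seeing the data. miR-375 turned from 0.069 to -0.0095 without the 10 most abundant and to -0.022 by TMM over all features. The scalings for the list and the hairpin entry and the thinned share of the 3p arm (35.9% against 34.6%) were chosen at the same stage. No paired analysis was possible because normoxia and hypoxia have a single library each, which also left none to omit.

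With 240 counts for the 5p arm and 134 for the 3p arm, the counting intervals of the log2 ratios are 0.755 and 1.02 wide. The difference between the arms has a counting SE of 0.311.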
